A study of Mus musculus with 3 samples.

Results

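The genes described here are 9 genes of fructose uptake, fructose breakdown and the polyol pathway: Slc2a5, Slc5a10, Slc5a9, Slc2a9, Khk, Tkfc, Glyctk, Sord and Akr1b3. They were taken by symbol from the 32285 genes counted, and each symbol matched 1 gene. Whole kidneys of 28-week-old males had been dissociated and their cells sequenced in droplets (10x Genomics), giving 3 libraries, 1 for each group. A fructose-free control diet was fed to db/m mice (called db/m here) and to db/db mice (db/db control), and a diet with 60% fructose to further db/db animals (db/db fructose), in each case over 20 weeks starting at 8 weeks of age. The db/db mouse lacks a working leptin receptor and is a model of obesity and type 2 diabetes; db/m mice are its lean controls. Per the labels' protocols the kidneys were perfused, minced, digested with collagenase and pronase, and freed of red cells, debris and dead cells, so the cells measured are those that survived digestion. The labels do not say how many mice gave each library.

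Fructose is filtered into the urine and taken up by the proximal tubule, whose early part (segments S1 and S2) is marked by the glucose carrier Slc5a2 and whose late part (S3) by carriers such as Slc7a13. Inside the cell, ketohexokinase phosphorylates fructose without feedback control, the product is split, and triokinase returns the glyceraldehyde to glycolysis. Glycerate kinase handles glycerate, the side product of that route. The polyol pathway makes fructose inside the cell: aldose reductase turns glucose into sorbitol, which also serves as an osmolyte in the medulla, and sorbitol dehydrogenase turns sorbitol into fructose.

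Of the 9 genes, 7 have an entry in the RefSeq promoter table of GRCm38.p6, and Akr1b3 and Slc5a9 are only named. The upstream sequences of Slc5a10 and Slc2a5 are shown because their levels had the most similar pattern of any pair of the 9 genes. They stop before the first annotated exon base of any gene on either strand. The Slc2a5 stretch leaves 108 bases up to its listed transcription start, and that of Slc5a10 leaves 27. Capitals mark a match to GTTAAT (the half-site of HNF1 factors) or AGGTCA (the half-site of many nuclear receptors). CACGTG (an E-box) was searched too, on both strands like the others. The motifs can share end bases, but the matches shown do not overlap. The shorter stretches have 1 motif each in capitals: CACGTG in Khk, whose lower-case gttaat is its HNF1 half-site, and GTTAAT, read on the other strand, in Glyctk.
Slc5a10, chr11:61720827-61721049, minus strand: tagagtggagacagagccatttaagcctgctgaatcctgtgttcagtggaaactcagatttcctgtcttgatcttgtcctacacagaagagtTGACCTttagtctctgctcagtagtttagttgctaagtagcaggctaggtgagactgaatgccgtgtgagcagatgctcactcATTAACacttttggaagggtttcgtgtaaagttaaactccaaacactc
Slc2a5, chr4:150119094-150119235, plus strand: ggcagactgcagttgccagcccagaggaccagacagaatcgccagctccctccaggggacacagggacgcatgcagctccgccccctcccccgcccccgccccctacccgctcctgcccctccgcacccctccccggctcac
Khk, chr5:30921476-30921505, plus strand: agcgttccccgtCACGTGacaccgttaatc
Glyctk, chr9:106158178-106158207, minus strand: ccttcatgaatgATTAACttctaggcaaag
The shorter stretches show the E-box of Khk, which starts 71 bases before the transcription start, and the HNF1 half-site of Glyctk, which starts 57 bases before it. In the 250 bases before the start, GTTAAT was found in Khk, Glyctk and the first of the 2 listed starts of Slc5a10, and in 6.43% of all 32851 promoters of the same length. CACGTG was found in Khk alone among the 7 genes and in 6.02% of all promoters. AGGTCA was found in Slc2a9, Glyctk and Slc5a10 and in 14.0% of all promoters. The window of Slc2a5 held none of these letters.

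The libraries held 13524 to 26513 barcodes and 31660184 to 52704335 unique molecular identifiers (UMIs, 1 per captured RNA molecule). After filtering, 42215 cells with a median of 1531 to 1679 UMIs remained, and they fell into 31 clusters. Early proximal cells numbered 2329 in db/m, 3951 in the db/db control library and 4920 with fructose, and late proximal cells 2061, 2545 and 3607. The libraries differed in their main proximal clusters. Early cells lay mostly in cluster c7 in db/m, c0 in db/db control and c1 in db/db fructose, and late cells in c9, c5 and c2. The late markers themselves were lower in db/db: their summed level in late cells was 4170 CPM (a gene's UMIs scaled to the same total for every class) in db/m, 990 in db/db control and 1870 in db/db fructose, while the early markers in early cells summed to 5989, 5671 and 8469 CPM. In early cells the late markers summed to 1279 CPM in db/m, 247 in db/db control and 439 in db/db fructose. Early db/m cells thus held more of them than late db/db control cells, so late cells of the libraries are not alike by these markers. In late cells the early markers summed to 2248, 2827 and 3866 CPM, which is above the late markers in both db/db libraries. Slc7a13 itself stood at 309, 14.2 and 88.0 CPM in late cells, against 93.4 CPM in early db/m cells. Late here means late relative to the other proximal cells of the same library, and S3 identity was not shown. A further 1513 db/m cells (c10, led by Kap and Acy3) had no clear place. The median share of mitochondrial UMIs in early cells was 13.8% in db/m, 21.3% in db/db control and 9.93% in db/db fructose, and in late cells 10.4%, 19.7% and 8.37%. Pairs of libraries shared 379 to 780 barcodes. Proximal markers summed to 4965, 3890 and 5884 CPM in lymphocyte-like cells, against 17205, 12828 and 15626 CPM in early proximal cells; free RNA, remaining doublets and misplaced cells were not told apart. With 1 library per group there is no test between groups. The intervals below are 95% intervals for counting error only, a gene counts as measured if at least 1 of the compared libraries reaches 10 CPM, and a difference is called higher or lower at 1.5-fold or more.

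Most of the 9 genes were at their highest in proximal cells, and within them in the late part. In all 3 libraries late cells exceeded early cells by 1.5-fold or more for Slc2a5 and Slc5a10, 2 of the 8 measured genes, against 2.58% of all measured genes. For Slc5a10 this held in each of 9 alternatives. For Slc2a5 the log2 ratio in db/m, 0.77 as reported, was under the line for a call in 3 of them, at 0.58 without doublet removal, 0.55 with late markers stripped of androgen-related genes and 0.54 with each cell placed by its own marker score. None of the 8 was lower in late cells of all 3 libraries, against 1.65% of all measured genes. Proximal cells gave 64.7% to 84.0% of all Glyctk UMIs and 58.3% to 70.9% of Khk UMIs, while they gave 34.5% to 47.9% of all UMIs. They gave 11.3% to 21.2% of Akr1b3 UMIs and 24.2% to 34.5% of Slc2a9 UMIs. Akr1b3 was highest in thin limb cells and Slc2a9 in connecting tubule and principal cells.

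**Figure D1:**
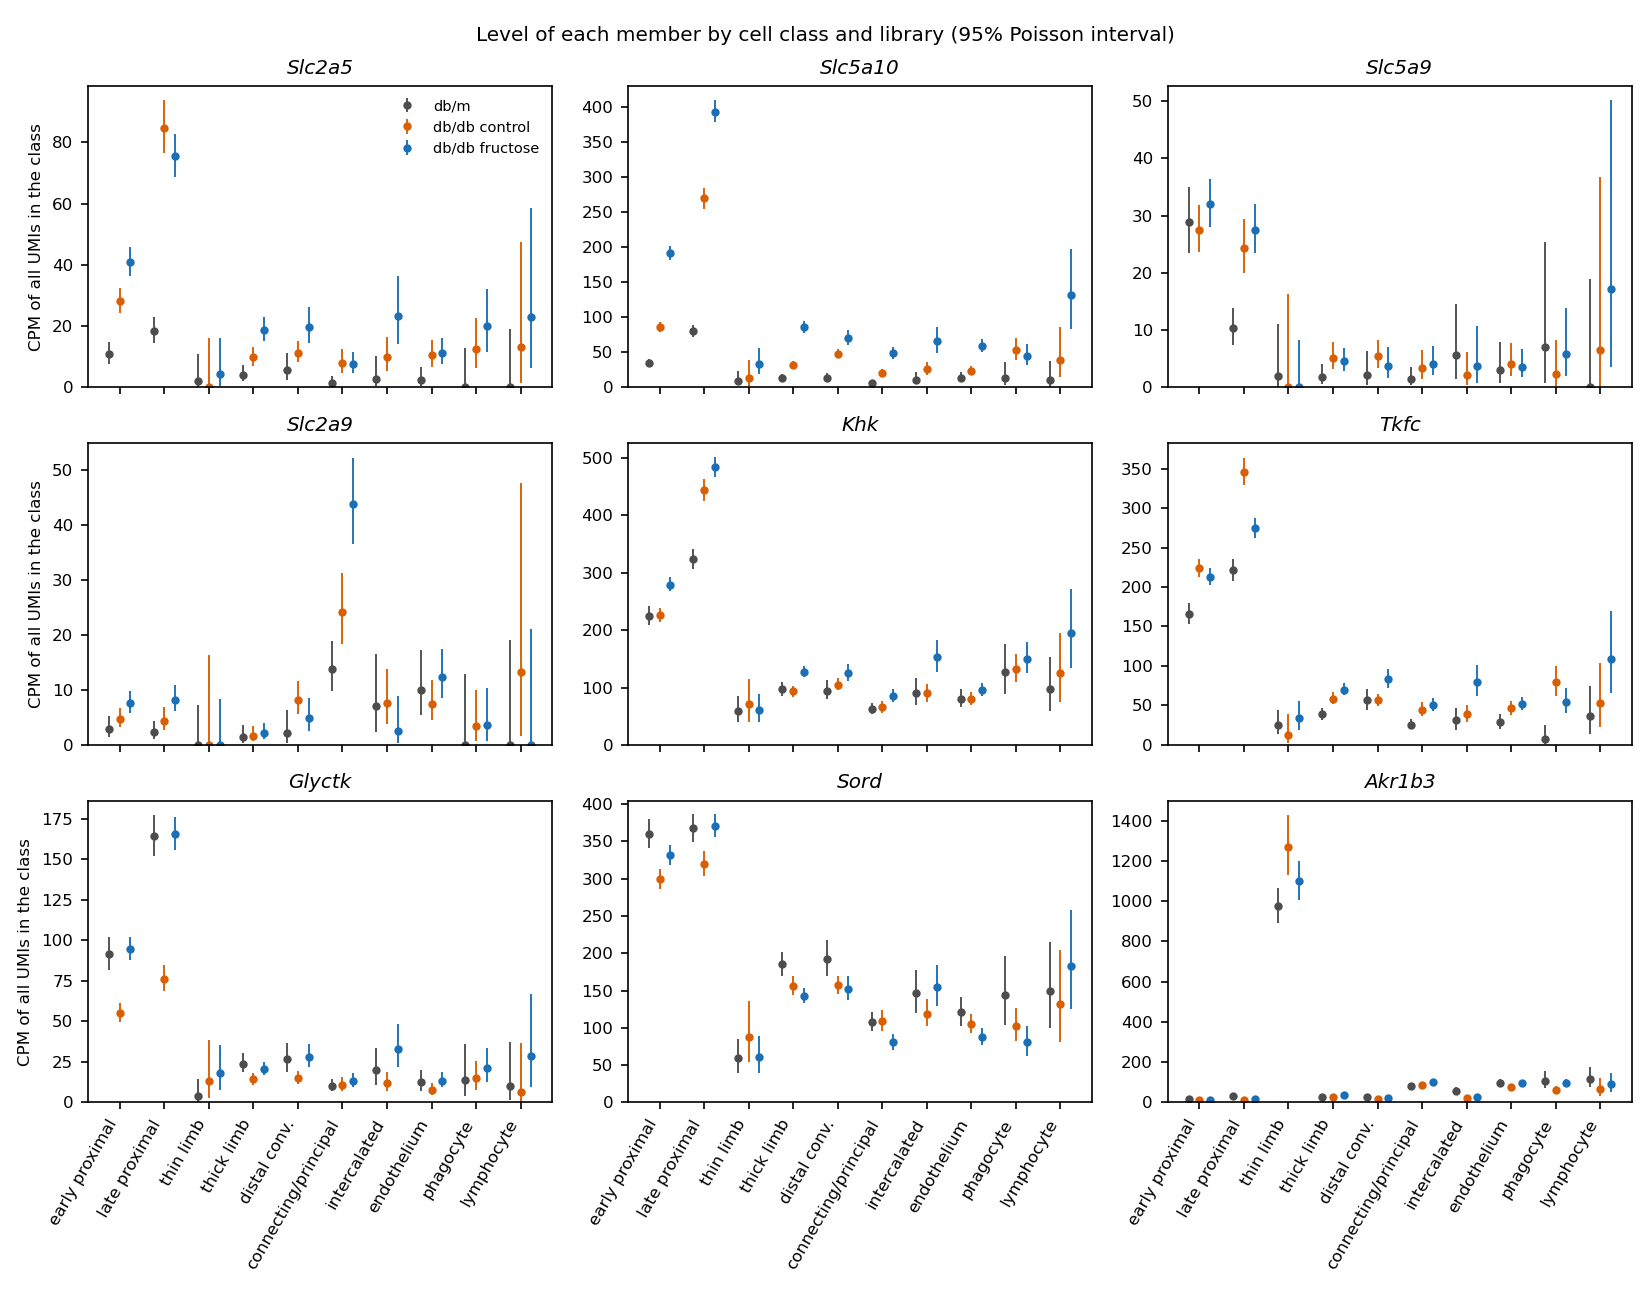
Level of each gene (CPM of all UMIs in the class) in 10 cell classes, with 1 point per library and a 95% Poisson interval; each panel has its own scale. Slc2a5, Slc5a10, Khk, Tkfc and Glyctk were highest in late proximal cells, Akr1b3 stood near 1000 CPM in thin limb cells, and Slc2a9 was highest in connecting tubule and principal cells.

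Slc2a5 encodes GLUT5, a fructose carrier that needs no sodium, and lies at chr4:150119283-150144169 on the plus strand. In late proximal cells it stood at 18.5 CPM in db/m (77 UMIs), 84.8 CPM in db/db control (383 UMIs) and 75.5 CPM in db/db fructose (466 UMIs). The db/m library was the low one and the intervals of the 2 db/db libraries overlapped. Db/db control late cells were 4.59-fold above db/m (3.58 to 5.94), and db/db fructose stood at 0.89 of db/db control (0.78 to 1.02). In early cells the levels were 10.9, 28.1 and 41.0 CPM, from 38, 184 and 302 UMIs. Here all 3 libraries were apart: db/db control was 2.59-fold above db/m (1.82 to 3.78) and db/db fructose 1.46-fold above db/db control (1.21 to 1.76), under the line for a call. In cells with at most 15% mitochondrial UMIs the latter log2 ratio turned from 0.54 to -0.08. Late cells exceeded early ones 1.70-fold in db/m, 3.01-fold in db/db control and 1.84-fold in db/db fructose. After thinning each cell to 800 UMIs, Slc2a5 was found in 1.47% of late db/m cells, 6.25% of late db/db control cells and 5.79% of late db/db fructose cells (3.40%, 12.9% and 11.3% before thinning). In lymphocyte-like cells, which should lack it, the thinned shares were 0 of 86 cells, 1.19% and 2.47%, at median depths of 1678, 1494 and 1399 UMIs against 1765, 1667 and 1580 UMIs in late cells. Subtracting the lymphocyte-like level, which rests on 0, 2 and 4 UMIs, left a log2 ratio of 1.95 in late cells between db/db control and db/m. In early cells it left 0.46, so the early call was lost. The rise from db/m to db/db control also appeared outside proximal cells. Endothelium went from 2.33 to 10.4 CPM (3 and 25 UMIs) and connecting tubule and principal cells from 1.42 to 7.95 CPM (4 and 19 UMIs). Thick ascending limb cells went from 4.24 to 9.81 CPM (12 and 40 UMIs). Thin limb cells (1 and 0 UMIs) and podocytes (2 and 0 UMIs) held too few UMIs to give a direction. Their db/db control intervals reached 16.3 and 158 CPM, against 1.98 and 6.09 CPM in db/m. The cause was not tested.

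Slc5a10 encodes SGLT5, a sodium-coupled carrier of mannose and fructose found mainly in the kidney. It lies at chr11:61672781-61720826 on the minus strand, opposite Grap and Fam83g. Late proximal cells held 80.7 CPM in db/m, 270.0 in db/db control and 394 in db/db fructose, from 336, 1220 and 2433 UMIs. Early cells held 34.6, 86.1 and 192 CPM, from 121, 563 and 1414 UMIs. In both parts the 3 libraries stood in the same order, with no overlap of their intervals. Db/db control was above db/m 3.35-fold in late cells (2.96 to 3.79) and 2.49-fold in early cells (2.04 to 3.06). Db/db fructose was above db/db control 2.23-fold in early cells (2.02 to 2.46) and 1.46-fold in late cells (1.36 to 1.57). The step with fructose also appeared in other classes: thick ascending limb cells went from 32.1 to 86.4 CPM, endothelium from 24.2 to 59.3 CPM and lymphocyte-like cells from 39.6 to 132 CPM (6 and 23 UMIs). Mononuclear phagocytes did not show it, with 52.9 CPM in db/db control and 45.1 CPM with fructose (46 and 38 UMIs). With the lymphocyte-like level subtracted, the log2 ratio of db/db fructose to db/db control was 0.38 in early cells and 0.19 in late cells, so the early call was lost. Db/db control against db/m kept log2 ratios of 0.94 and 1.71 after that subtraction. The rise from db/m to db/db control also appeared in other classes. Distal convoluted tubule cells went from 13.0 to 48.2 CPM and mononuclear phagocytes from 14.1 to 52.9 CPM (4 and 46 UMIs). Podocytes (3 and 0 UMIs) were too few to give a direction, since the db/db control interval reached 158 CPM, against 9.14 CPM in db/m. The unnamed cells stood at 147 and 94.7 CPM but were not the same cells. Cluster c24 gave 171 of their 181 UMIs in db/m, and cluster c3 gave 306 of 511 in db/db control. The cause was not tested. The sources used here do not say whether counting used the strand. Fam83g stood at 27.4, 27.1 and 19.4 CPM in early cells and at 14.6, 23.2 and 11.5 CPM in late cells, and Grap was at or under 1.33 CPM.

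Slc5a9 encodes SGLT4, another sodium-coupled carrier of mannose, glucose and fructose, at chr4:111875375-111902918 on the minus strand. Unlike Slc2a5 and Slc5a10 it was not higher in late cells. Early cells held 28.9 CPM in db/m, 27.5 in db/db control and 32.0 in db/db fructose, with overlapping intervals. Late cells held 10.3 CPM in db/m, 24.3 in db/db control and 27.5 in db/db fructose, and here db/m was the low library. Late cells of db/m were thus 2.80-fold below early ones, while in db/db control and db/db fructose the log2 ratios were -0.18 and -0.22 with intervals that included 0. Db/db control late cells stood 2.36-fold above db/m (1.64 to 3.44). That ratio rests on 110 and 43 UMIs.

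Slc2a9 encodes GLUT9, known mainly as a urate carrier, at chr5:38349273-38503143 on the minus strand. In proximal cells it stayed under 10 CPM in every library, from 2.40 CPM in late db/m cells to 8.26 in late db/db fructose cells, and was not counted as measured there. In connecting tubule and principal cells it stood at 13.8 CPM in db/m (39 UMIs), 24.3 in db/db control (58 UMIs) and 43.9 in db/db fructose (127 UMIs). The db/m value was the lowest and the fructose value the highest, and the intervals of db/m and db/db control overlapped. The log2 ratios were 0.81 (0.20 to 1.43) for db/db control against db/m and 0.86 (0.40 to 1.33) for db/db fructose against db/db control. After thinning, 1.38%, 2.27% and 3.66% of these cells had a UMI (4.64%, 6.34% and 11.1% before). In thick ascending limb cells, where its level was 1.41 to 2.21 CPM, the thinned shares were 0.08%, 0.26% and 0.22%. Their median depths were 1869, 1724 and 1582 UMIs, against 2714, 2165 and 2120 UMIs in the connecting tubule and principal cells.

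**Figure D2:**
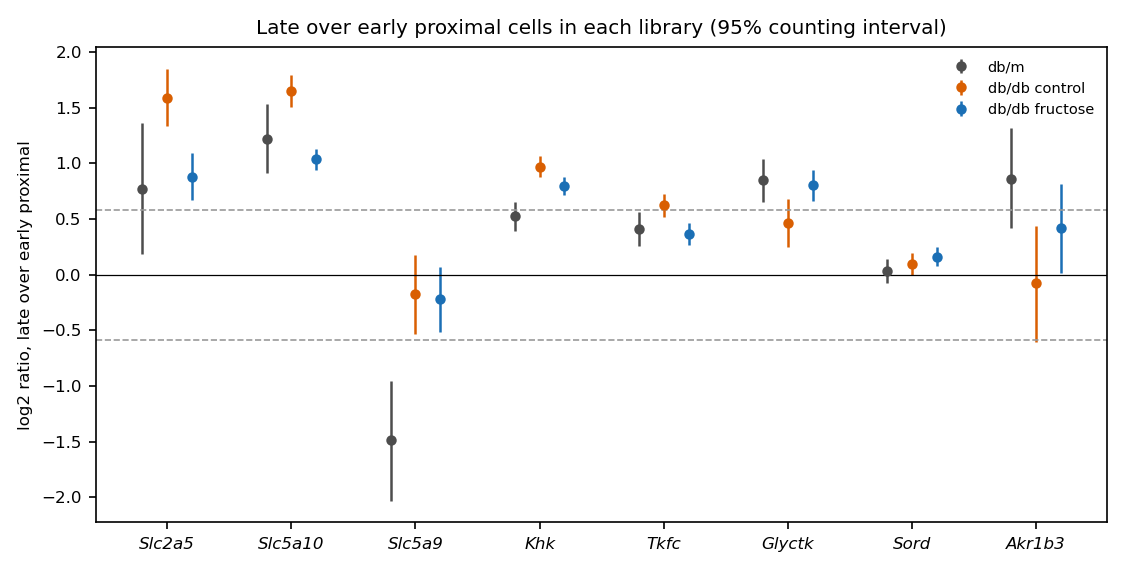
Log2 ratio of late over early proximal cells for the 8 measured genes, with 1 point per library and a 95% counting interval; dashed lines mark 1.5-fold. Slc2a5 and Slc5a10 lay above the upper line in all 3 libraries, Slc5a9 lay below the lower line in db/m alone, and Sord stayed between 0.03 and 0.16.

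Khk encodes ketohexokinase, the enzyme that commits fructose to breakdown, at chr5:30921431-30931248 on the plus strand. The counts do not separate its C and A forms. Late proximal cells held 324 CPM in db/m, 444 in db/db control and 484 in db/db fructose, and early cells 225, 226 and 279 CPM. Its late over early ratio was 1.44-fold in db/m, 1.96-fold in db/db control and 1.73-fold in db/db fructose. With the stripped late markers the db/m ratio was lost, going from 0.52 to -0.04 on the log2 scale. In early cells db/m and db/db control had the same level within their intervals, and db/db fructose was the high library. There the log2 ratio of db/db fructose to db/db control was 0.30, beside a median of 0.25 over all measured genes. After subtraction of the lymphocyte-like level that ratio was -0.25. None of the 4 ratios between libraries reached 1.5-fold: db/db control was 1.37-fold above db/m in late cells (1.28 to 1.47) and 1.01-fold in early cells (0.92 to 1.10), and db/db fructose was 1.23-fold and 1.09-fold above db/db control in early and late cells. The unplaced cluster c10 is outside these ratios. It held 451 CPM in its 1513 db/m cells and 1066 CPM in its 93 db/db fructose cells, while 35 db/db control cells fell there. Over the alternatives, the late log2 ratio of db/db control to db/m ran from 0.12 to 0.61, against 0.46 as reported. The lowest value came with each cell placed by its own marker score, and the highest was past 1.5-fold. The early ratio ran from -0.53 to 0.24, against 0.01 as reported.

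Tkfc encodes triokinase, which phosphorylates the glyceraldehyde made from fructose. It lies at chr19:10587791-10605654 on the minus strand, opposite Cyb561a3 and Ddb1. Late cells held 221 CPM in db/m, 346 in db/db control and 274 in db/db fructose, and early cells 166, 224 and 213 CPM. Db/db control was the high library in late cells, 1.56-fold above db/m (1.44 to 1.70). In early cells the 2 db/db libraries overlapped and both stood above db/m, by 1.35-fold for db/db control. Db/db fructose late cells were 1.26-fold below db/db control. Ddb1 stood at 52.8 to 90.5 CPM in early and late cells, and Cyb561a3 at or under 14.7 CPM. Without doublet removal the log2 ratio of late db/db control to db/m was 0.42, under the line for a call.

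Glyctk encodes glycerate kinase, at chr9:106152857-106158138 on the minus strand. Like Sord and Akr1b3 of the polyol pathway, it had its lowest level in db/db control, and it was the only breakdown gene to do so. Late cells held 164 CPM in db/m (685 UMIs), 76.4 in db/db control (345 UMIs) and 166 in db/db fructose (1023 UMIs). Early cells held 91.4, 55.3 and 95.02 CPM, from 320, 362 and 700 UMIs. In both parts the intervals of db/m and db/db fructose overlapped and that of db/db control lay below them. Db/db control was 2.15-fold below db/m in late cells and 1.65-fold below in early cells. Db/db fructose was 2.17-fold above db/db control in late cells (1.92 to 2.46) and 1.72-fold in early cells (1.51 to 1.95). Distal convoluted tubule cells showed the same order at lower levels, with 26.8, 14.95 and 28.4 CPM. The mitochondrial share ran the other way over the 3 libraries, highest in db/db control. In proximal cells with at most 15% mitochondrial UMIs the log2 ratios in late cells were -1.0 for db/db control against db/m and 0.93 for db/db fructose against db/db control. In early cells of that kind they were -0.52 and 0.59, and the first of these was no longer past the line. Over all early cells it missed the line without doublet removal (-0.42) and with a wider unplaced band (-0.57), and the second did so with median-of-ratios scaling (0.54). Subtracting the lymphocyte-like level left 0.98 in late cells and 0.45 in early cells for db/db fructose against db/db control, so the early call was lost. The late calls held in each of 12 alternatives and at a 2-fold line.

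Akr1b3 encodes aldose reductase, which makes sorbitol, at chr6:34302434-34317478 on the minus strand. Thin limb cells, which lie in the salty medulla, held 975 CPM in db/m (492 UMIs), 1271 in db/db control (288 UMIs) and 1099 in db/db fructose (487 UMIs), from 80, 49 and 84 cells. Podocytes, with 105, 8 and 12 cells, held 250 CPM in db/m (82 UMIs). Of the other classes the next highest held 119 CPM in db/m (lymphocyte-like cells), and 85.8 and 102 CPM in the db/db libraries (connecting tubule and principal cells). The lowest level of any class plotted was in early proximal cells in db/m and db/db fructose, and in late proximal cells in db/db control. Late cells held 32.2, 11.7 and 18.3 CPM, from 134, 53 and 113 UMIs, and early cells 17.7, 12.4 and 13.7 CPM. Db/m was the high library in late cells, and db/db control was 2.74-fold below it, with a log2 interval of -1.94 to -0.99. Db/db fructose was 1.56-fold above db/db control (1.12 to 2.21), a call that held in 7 of 11 alternatives. These proximal levels were below the lymphocyte-like level of 119, 65.9 and 91.5 CPM in each library, and expression in the proximal cells and free RNA cannot be told apart here. Of the 60-base stretches of its transcripts, 8.91% occur in 4 annotated genes that are near copies (Gm12138, Gm43855, Gm6644 and Gm6736). Reads in those stretches are uncertain, and none of the 4 is among the genes counted.

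Sord encodes sorbitol dehydrogenase, which turns sorbitol into fructose, at chr2:122234749-122265340 on the plus strand. Its levels in early and late cells differed by at most 1.12-fold, the smallest such maximum over the 3 libraries among the 8 measured genes. Early cells held 360 CPM in db/m, 299 in db/db control and 332 in db/db fructose, and late cells 368, 320 and 371 CPM. The late over early log2 ratio lay between 0.03 and 0.16. That evenness holds for the placing used here: in db/m the ratio was -0.41 with the stripped late markers and 0.42 with the unplaced cluster counted as late. Db/db control was 1.2-fold below db/m in early cells and 1.15-fold below in late cells, and neither reached the line. These ratios depend on the placing too. With the stripped late markers the early log2 ratio was -0.69, past the line, against -0.27 as reported. With the unplaced cluster counted as late the late one was -0.56, against -0.20 as reported. The unplaced cluster c10 held more, with 628 CPM in db/m and 740 CPM in db/db fructose. Of the 60-base stretches of Sord transcripts, 29.2% are shared with Gm6652, which is not among the genes counted.

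Counted together for db/db control against db/m, more of the genes passed 1.5-fold in late than in early cells. In early cells 2 of the 8 measured genes were higher (Slc2a5 and Slc5a10), against 5.31% of all measured genes, and 1 was lower (Glyctk), against 8.26%. In late cells 4 were higher (Slc2a5, Slc5a10, Slc5a9 and Tkfc), against 6.91%, and 2 were lower (Glyctk and Akr1b3), against 12.1%. The median log2 ratio of the 8 was -0.03 in early and 0.55 in late cells, beside -0.08 and -0.10 over all measured genes. The difference between the early and late counts was not tested.

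For db/db fructose against db/db control, 2 of 8 were higher in early cells (Slc5a10 and Glyctk), against 12.3% of all measured genes, and 0 were lower, against 1.49%. In late cells 2 of 8 were higher (Glyctk and Akr1b3), against 15.3%, and 0 were lower, against 2.04%. The median log2 ratio over all measured genes was 0.25 in both parts, and that of the 8 genes 0.26 in early and 0.20 in late cells. Relative to that shift, with median-of-ratios scaling, the log2 ratio in late cells was 0.32 for Slc5a10, 0.89 for Glyctk, 0.41 for Akr1b3 and -0.56 for Tkfc, and in early cells 0.92 for Slc5a10 and 0.54 for Glyctk. Under that scaling the signs turned for Khk in late cells (-0.10), for Sord in early and late cells (-0.09 and -0.02), and for Slc5a9 in early and late cells (-0.02 and -0.05) and for Akr1b3 in early cells (-0.09). The 2 comparisons share the db/db control library, so a value that is low in that library alone, as for Glyctk, enters both.

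**Figure D3:**
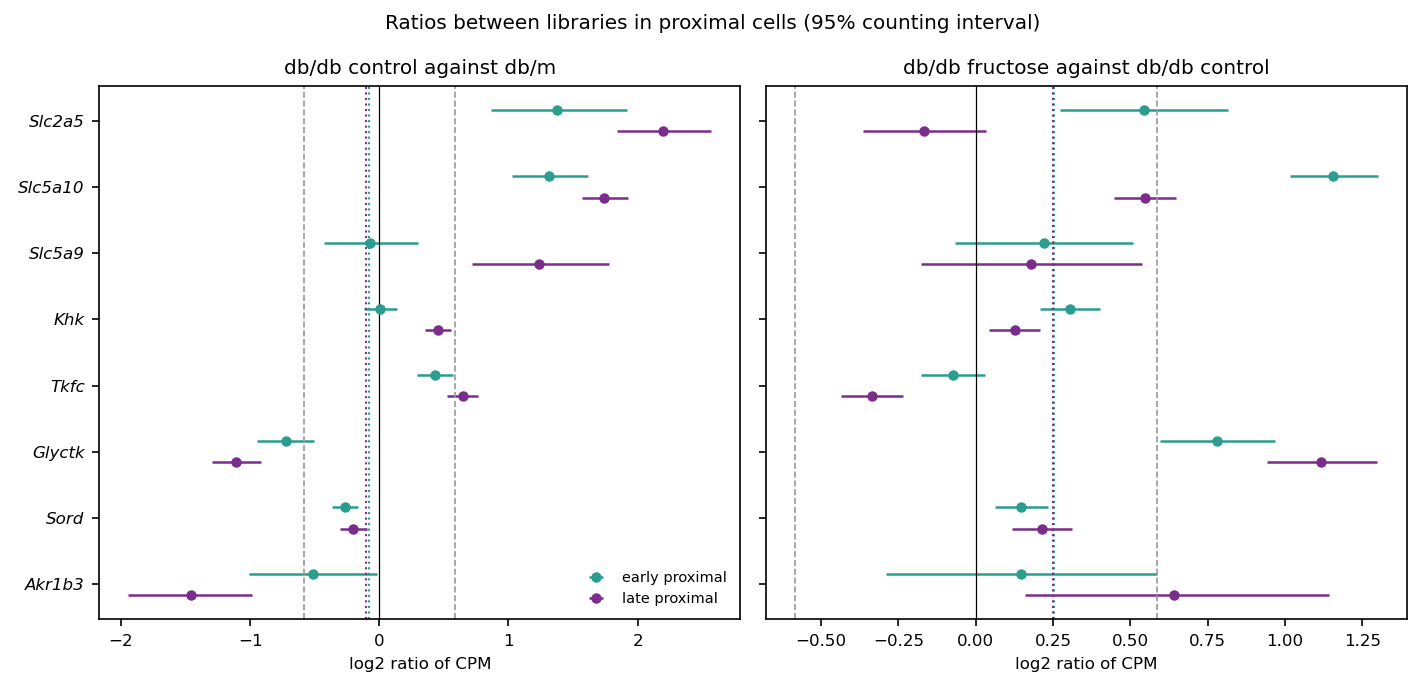
Log2 ratios of CPM between libraries in early and late proximal cells for the 8 measured genes, with 95% counting intervals; dashed lines mark 1.5-fold and dotted lines the median of all measured genes. Slc2a5 and Slc5a10 lay right of the upper line for db/db control against db/m, and Glyctk lay left of it there and right of it for db/db fructose against db/db control.

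The other genes of the pathway were taken from a list of 31 on fructose, triose and polyol handling, sugar sensing and osmolytes, of which 22 were measured in db/db control against db/m. In late cells 5 were higher and 3 lower, and in early cells 2 were higher and 0 lower, with medians of -0.07 and -0.13. Of all measured genes, 6.91% were higher and 12.1% lower in late cells, and 5.31% and 8.26% in early cells. Their medians were -0.10 and -0.08. Slc2a2, the GLUT2 carrier of the basolateral membrane, was 2.02-fold higher in late db/db control cells (170 against 84.0 CPM). Gpd1, which makes glycerol 3-phosphate from the triose pool, was 1.94-fold higher there (245 against 126 CPM). Txnip, which responds to glucose through the factors Mlx and Mlxipl, was 2.57-fold higher in early cells (216 against 84.3 CPM) and 2.23-fold higher in late cells (660 against 296 CPM). Grhpr, which reduces glyoxylate and hydroxypyruvate, was 1.53-fold lower in late cells (52.9 against 80.9 CPM). For db/db fructose against db/db control, 23 genes of the list were measured: 1 was higher and 0 lower in early cells, and 3 were higher and 1 lower in late cells, with medians of 0.18 and 0.11. Of all measured genes, 12.3% were higher and 1.49% lower in early cells, and 15.3% and 2.04% in late cells. Their median was 0.25 in both parts. Gk, glycerol kinase, was 1.66-fold higher in late cells (788 against 473 CPM). Counted too, and named after their values were seen because they lie under 50 CPM, were Hk1 (higher in early and late db/db control cells, then lower with fructose in late cells), Mlx (lower in late db/db control cells), Akr1b10 (lower in late db/db control cells and higher with fructose in early and late cells) and Slc2a8 (higher with fructose in late cells). Of the genes of the list, G6pc, Mlxipl and Txnip exceeded 1.5-fold in late over early cells of all 3 libraries, as Slc2a5 and Slc5a10 did. From the list that was 3 of 22 measured genes, against 2.58% of all measured genes.

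The pattern of each gene over 30 points (10 classes in 3 libraries) was compared with that of 7453 genes at 50 CPM or more in at least 1 point. These correlations are descriptions, since the points share libraries, depth and free RNA. Slc2a5 and Slc5a10 were each other's closest gene (Pearson r 0.94), followed for both by Rdh16f2. Khk was closest to Acox3 (0.97), Upb1 (0.96) and Mlxipl (0.96). Tkfc was closest to Slc25a10, Abcc2 and Prodh (0.96 to 0.94), and Sord to Miox, 0610005C13Rik and Cyp2j5 (0.93 to 0.92). The genes most like Glyctk included Gk and Myo15b (both 0.94). Akr1b3 was closest to Ly6e, Snrpg and Tmsb4x (0.94 to 0.93). Slc5a9 and Slc2a9 did not reach 50 CPM in any point.

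**Figure D4:**
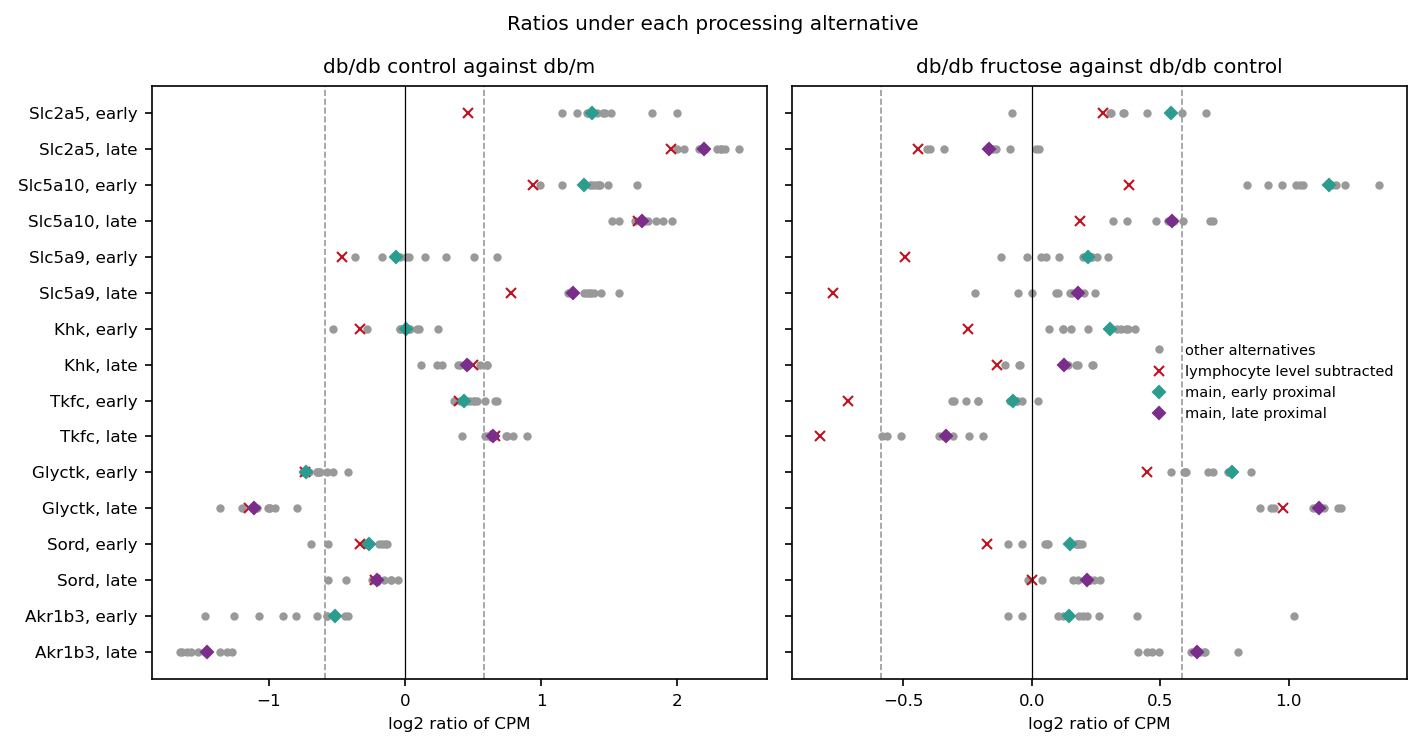
Log2 ratios of the 8 measured genes in early and late proximal cells as reported (diamonds), under the other processing alternatives (grey points) and with the lymphocyte-like level subtracted (red crosses); dashed lines mark 1.5-fold. Slc2a5, Slc5a10 and Glyctk in late cells of db/db control against db/m stayed past the line in each, while Slc5a10 in early cells of db/db fructose against db/db control moved from 1.16 to 0.38 on subtraction.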

How the data were processed

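The authors deposited 1 matrix of UMI counts (genes by barcodes) for each library. The submitters' processing notes name Cell Ranger 6.0.0 and the build mm10. Strand and intron settings are not given in the sources used here. Barcodes with under 200 genes or over 50% mitochondrial UMIs were dropped, and the highest Scrublet scores were removed at 0.8% per 1000 barcodes (1463, 5624 and 3324 barcodes). Counts were scaled to 10000 per cell and logged, and 2000 variable genes, without the 9 genes and the pathway list, gave 30 principal components, 15 neighbours and Leiden clusters at resolution 1 (scanpy 1.11.5, leidenalg 0.10.2). Clusters were named from markers at a mean log2 fold of 1.0 or more over the other clusters' median. That limit was set after the clusters were seen, and the class names are rebuilt, not the authors'. Clusters left without a name held 239 cells in db/m, 2895 in db/db control and 984 with fructose; the largest, c3, was mostly of db/db control and was led by Pvalb and Calb1. Proximal clusters were placed as early or late by 8 early against 10 late markers within each library, with a band of 0.25 left unplaced.

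Raw counts were summed per class and library and given as CPM. Poisson intervals for CPM, exact conditional binomial intervals for ratios and Clopper-Pearson intervals for shares, all at 95%, cover counting error only. A summed count of 0 was set to 3 counts in ratios. Fold calls and intervals were tested on simulated Poisson counts. That check covers the computation alone, since the simulated counts hold no spread between animals or libraries. The text names all 9 genes and those of the list past 1.5-fold at 50 CPM or more in the higher library, and for each gene the 3 most correlated over log2(CPM + 10); 2 genes that this rule names are not reported here. The genes, lists and motifs were chosen with earlier results of these data known. Gene positions come from GENCODE M21 and sequences from RefSeq (GRCm38.p6).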

Additional observations from a re-analysis of the deposited data

How the results depend on the processing

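No paired analysis was possible because each group is 1 library and no replicate numbers are shared. Of 15 alternatives, those that change a threshold leave the log2 ratios of the 9 genes as they are. The others gave 428 ratios, of which 328 stayed within the counting interval of the reported value and 100 did not, and no ratio called higher or lower changed sign. Ratios that were not called did so in part. For db/db control against db/m in early cells, those of Khk and Slc5a9 each kept their sign in 6 of 12 alternatives. For fructose, Khk in late cells kept it in 8 of 12, and Slc5a9 and Sord in early cells in 9 of 12. Slc2a9, not measured in proximal cells and so not called, also changed sign. For db/db control against db/m it went from 0.73 to -2.64 in early and from 0.88 to -1.85 in late cells after lymphocyte subtraction. For fructose in late cells it went from 0.90 to -0.03 at the 15% limit. Of 120 counts of genes past 1.5-fold, 87 stayed within 1.5 times the reported count and 33 did not, as follows; where no cause is named, the cause was not tested.

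For db/db control against db/m in early cells, the 3 of the 9 genes became 5 without doublet removal and 5 with late markers stripped of androgen-related genes. The 2 pathway genes became 4 on non-mitochondrial UMIs alone, 5 without doublet removal, 11 with the stripped markers, 7 after lymphocyte subtraction and 9 with each cell placed by its own score. They became 1 at 50 CPM and 1 at 2-fold, where fewer genes can pass. In late cells the 8 pathway genes became 5 at 50 CPM and 3 at 2-fold.

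For fructose against control diet in early cells, the 2 of the 9 genes became 1 with size factors, 1 at 2-fold and 1 after subtraction (Tkfc, lower). The 1 pathway gene became 2 on non-mitochondrial UMIs alone, at Leiden resolution 2, with a wider unplaced band and by own score. It became 3 with size factors, at 1 CPM, with stripped markers and in cells with at most 15% mitochondrial UMIs, then 8 after subtraction, 0 at 50 CPM and 0 at 2-fold. In late cells the 2 of the 9 genes became 1 (Glyctk) on non-mitochondrial UMIs alone, with size factors, at 50 CPM, at 2-fold and with at most 15% mitochondrial UMIs. The 4 pathway genes there became 1 at 50 CPM, 2 at 2-fold and 9 after subtraction.

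Lymphocyte-like cells gave few UMIs (6 and 23 for Slc5a10 in the db/db libraries), so the subtracted values carry a wide counting error. Placing each cell by its own score, the unplaced cluster counted as late and the 15% limit were chosen after seeing the data.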

Other observations

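Cells outside the named classes also held these genes. Cluster c24, led by Cd74, Sparc and Cryab, was left without a name. It had 94 cells in db/m and 94 with fructose, at median depths of 8887 and 10775 UMIs. The median depth of its cells was 5.58 times that of their library. Its best marker match was proximal tubule (5 markers, mean log2 fold 0.73), 0.15 ahead of thin limb. Whether c24 holds doublets or proximal cells was not tested. Its Slc5a10 level was 175 CPM in db/m and 885 CPM with fructose, above that of late proximal cells in both libraries, and its Khk level was 565 and 915 CPM. Cluster c3, led by Pvalb and Calb1, held Slc5a10 at 77.4 CPM in its 2707 db/db control cells and 217 CPM in its 397 cells of the fructose library. Its median mitochondrial share was 38.0%, and free RNA was not measured apart from the cells' own in either cluster.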
